A study of Mus musculus with 9 samples.

Results

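The lysosome, autophagy and V-ATPase genes described here are 39 genes that were chosen by symbol, with earlier results of these data known. All 39 were found among the 52459 gene symbols of the count table. They were measured by RNA sequencing of islets of Langerhans, which hold the endocrine cells of the pancreas, from 12-week-old mice. The groups were db/db (homozygous for the db allele of Lepr, the leptin receptor gene), db/+ (heterozygous) and wild type (WT), with 3 libraries each, and all 9 carry the same strain label, BKS.Cg-Dock7m +/+ Leprdb/J. The db allele is a germline mutation carried by every cell. Mice of db/db genotype are obese and diabetic, so their islets differ from the others in metabolic setting as well as in genotype. Neither sex nor pooling is stated, so it is not known whether a library came from 1 animal. The p-values below therefore measure only the spread between these libraries, which may be technical.

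Lysosomes are acidic organelles in which proteases, glycosidases and lipid-degrading enzymes break down material delivered by endocytosis or by autophagy. The V-ATPase, a proton pump of many subunits, acidifies them, and in beta cells it also acidifies the insulin granule. In autophagy a membrane grows around cytoplasm, ubiquitin-like proteins of the ATG8 family are joined to its lipids, and the closed vesicle fuses with a lysosome. The transcription factors TFEB and TFE3 bind a promoter motif shared by many lysosomal genes and are held in the cytoplasm by the nutrient-sensing kinase mTORC1. Islet beta cells degrade part of their insulin granules in lysosomes.

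Levels are CPM, a gene's count as a share of its library, scaled to TMM-normalised library sizes, and differences are log2 fold changes ± SE from edgeR's quasi-likelihood test. That test reports no SE, so it was taken as the absolute log2 fold change over the square root of the F statistic. A gene was called at an adjusted p under 0.05 after Benjamini-Hochberg adjustment over the 16826 genes tested. All 39 members passed the filter on low counts, and the lowest count of any member in any library was 40, for Tfeb. In db/db against WT, 12 of the 39 members were higher (30.8%) and 9 lower (23.1%), while of all genes tested 21.8% were higher and 19.9% lower. In db/db against db/+, 9 members were higher (23.1%) and 13 lower (33.3%), beside 20.6% higher and 19.7% lower among all genes. The median log2 fold change of the members was 0.088 against WT and -0.049 against db/+, and that of all genes 0.006 and 0.013. In all, 21 members were called against WT and 22 against db/+, when 41.7% and 40.3% of all genes were. The db/db libraries lay above all WT libraries for 13 members and below them for 11, as they did for 26.2% and 25.3% of all genes. They lay above all db/+ libraries for 10 members and below them for 14, beside 26.2% and 26% of all genes. The 39 genes together made up 5755 to 6180.1 CPM (db/db), 6011 to 6272 CPM (db/+) and 5248 to 5919 CPM (WT). The db/db and WT ranges of this sum overlapped. With library totals alone as the scale, which moved the median of all genes by -0.22 against WT and -0.23 against db/+, the members divided into 10 higher and 12 lower against WT and into 4 higher and 17 lower against db/+. The count of lower members against WT was 5 without WT 1 or without WT 2, and that against db/+ was 8 without db/db 1. Per length of exon, the members with the highest WT level were Psap, Lamp1 and Scarb2 at 363, 203 and 122 CPM per kb, and the lowest was Glb1 at 2.95 CPM per kb, among the 37 members with a known length.

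**Figure D1:**
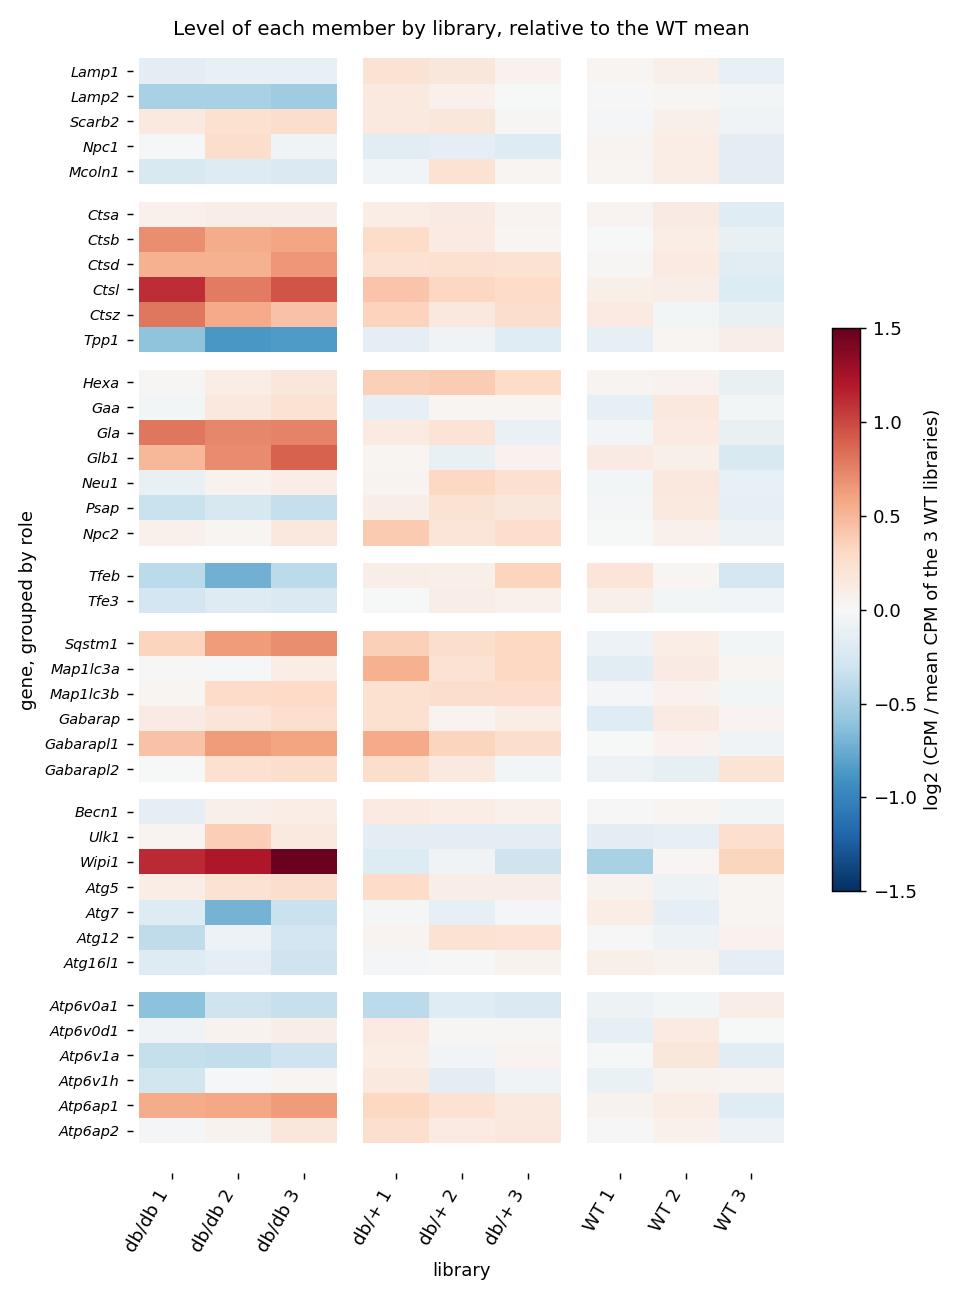
Each row is a member, grouped by role, and each column a library; colour gives the log2 ratio of its CPM to the mean of the 3 WT libraries, red above and blue below. Ctsb, Ctsd, Ctsl, Ctsz, Gla, Glb1, Wipi1 and Atp6ap1 are red and Lamp2, Tpp1 and Psap blue in all 3 db/db libraries.

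The libraries were not alike in other respects. Total counts ranged from 8860024 to 9260105 in db/db, from 11164775 to 11734886 in db/+ and from 9558955 to 11473420 in WT. Beta cell markers summed to 91969 to 125208 CPM (db/db), 104206 to 116249 CPM (db/+) and 83874 to 121523 CPM (WT). Of these 10, 7 were lower in db/db than in WT (70%, beside 19.9% of all genes). Iapp was higher, at 1.25 ± 0.12 (adjusted p = 3.78e-06), and Ins1 and Ins2 did not pass. Iapp, Ins1 and Ins2 make up most of the sum. Markers of alpha, delta and PP cells summed to 10182 to 11768 CPM (db/db), 18583 to 22548 CPM (db/+) and 12757 to 20726 CPM (WT). In bulk tissue, fewer cells of a type and less RNA per cell cannot be told apart. Macrophages, which are rich in lysosomal proteases, were tracked with 18 markers, none of which was at 0 in any library. They summed to 211 to 356 CPM (db/db), 143 to 176 CPM (db/+) and 144 to 192 CPM (WT), and 4 of the 18 rose in db/db against WT and 7 against db/+, with none lower. Acinar markers summed to 18362 to 51565 CPM (db/db), 15225 to 34725 CPM (db/+) and 6591 to 12459 CPM (WT), highest in db/db 1, and none of these 20 genes was at 0. Sex signal ran with genotype. Xist reached 948 CPM in db/db 2 and 858 CPM in db/db 3, which had at most 1.11 CPM of Y-linked genes, while the db/+ libraries and WT 2 had under 1 CPM of Xist and 343 to 417 CPM of Y-linked genes. The libraries db/db 1, WT 1 and WT 3 held over 100 CPM of both. No db/db library thus had the sex signal of a db/+ library, and in that comparison sex and genotype cannot be told apart except through the mixed db/db 1 and the WT libraries. The first letter of the library titles was the same for all db/db libraries and WT 3, and another for the rest, and what it marks is not stated. Both were tried as covariates. All db/db libraries share a letter and all db/+ libraries the other, so the letter's effect is set only by WT 3 against WT 1 and WT 2. The Y-linked sum was at most 1.11 CPM only in db/db 2 and db/db 3. The slope of that covariate is therefore set largely by db/db 1 against these libraries. A call that ended with either covariate may have lost precision rather than size, and which was not tested. Where a covariate ended a member's call in a comparison of db/db with another group, its value is given with the gene. Gm42418 and Lars2, which overlap ribosomal RNA sequence, took 17.9% and 13.3% of the counts of db/db 1 and db/db 2, and no more than 2.58% in any other library. Without db/db 1, WT 1 and WT 3, 11 members were higher and 4 lower in db/db against WT, but this set the Xist-only db/db 2 and db/db 3 against WT 2 alone, which has Y-linked counts and was assumed to vary like the other groups. Without db/db 1 and db/db 2 the counts were 11 and 4, with the remaining db/db library assumed to vary like the other groups.

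Both transcription factor genes stood lower in db/db, where 19.9% of all genes were lower against WT and 19.7% against db/+. Tfeb (chromosome 17, 47737037 to 47792416, mm10) was at 6.17, 4.95 and 6.14 CPM (db/db), 8.73, 8.69 and 10.3 CPM (db/+) and 9.36, 8.31 and 6.81 CPM (WT). Every db/db library lay below every library of the other groups, although Tfeb was the lowest of the members in counts. It fell, its log2 fold change being -0.51 ± 0.18 (adjusted p = 0.0361) against WT and -0.68 ± 0.18 (adjusted p = 0.00783) against db/+. Tfe3 was at 29.6, 31.6 and 30.9 CPM (db/db), 35.9, 38.7 and 38.01 CPM (db/+) and 38.2, 35.1 and 34.7 CPM (WT), again with the db/db libraries below all others. Its differences were -0.23 ± 0.086 (adjusted p = 0.0446) against WT and -0.29 ± 0.085 (adjusted p = 0.0153) against db/+. These calls against WT were close to the threshold. That of Tfeb ended without db/db 2, db/db 3, WT 1 or WT 2, with adjusted p from 0.0203 to 0.134 over the libraries left out, and that of Tfe3 without db/db 1, db/db 2, db/db 3, db/+ 2, db/+ 3, WT 1 or WT 2 (0.0455 to 0.135). Against db/+, the Tfe3 call ended without db/db 1 or db/+ 2 (0.0141 to 0.0561), and the Tfeb call held with each library left out. For Tfeb against WT, the call ended at -0.24 with the title letter covariate (adjusted p = 0.498) and -0.42 with the Y-linked covariate (adjusted p = 0.3). That call also ended with DESeq2 and with only the compared groups fitted. For Tfeb against db/+, the call ended at -0.30 with the title letter covariate (adjusted p = 0.556) and -0.58 with the Y-linked covariate (adjusted p = 0.18). For Tfe3 against WT, the call ended at -0.18 with the title letter covariate (adjusted p = 0.305), -0.27 with the acinar covariate (adjusted p = 0.239), -0.22 with the macrophage covariate (adjusted p = 0.145) and -0.29 with the Y-linked covariate (adjusted p = 0.132). That call also ended without the low-count filter, with DESeq2, with limma-voom and with only the compared groups fitted. For Tfe3 against db/+, the call ended at -0.21 with the title letter covariate (adjusted p = 0.405), -0.28 with the macrophage covariate (adjusted p = 0.112) and -0.36 with the Y-linked covariate (adjusted p = 0.0887).

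The motif that TFEB and TFE3 bind is shown here because many lysosomal genes are known to share it. A list of lysosomal genes would therefore hold it more often than genes at large, whatever the levels in these libraries. Promoter windows from 250 bases before to 50 bases after a RefSeq start site (GRCm38.p6, the assembly of mm10) were found for 32 of the 39 members. Each was searched on both strands for CACGTG, for TCACGTGA, which contains it, and for TCACGTGA with G before it and C after it. All of these read the same on either strand. CACGTG was present in the windows of 12 of these members, 37.5%, against 8.09% of all genes with a window and 11.4% of the tested ones. TCACGTGA was present in 6 members, 18.8%, against 1.12% and 2.05%. The longest form, with G before and C after, was present in 0 of the 32 members, against 0.37% and 0.743%. No test was made of these shares. Some of the start sites lie inside the gene. The window of Atg7 (114670846 to 114671145) lay well within its gene, which starts at 114643127. For Ctsa, the window with both matches ran from 164833523 to 164833822, and the window at its gene start (164832872) held none. The windows of Atp6v1a and Ctsl also used start sites inside the gene. The stretches around TCACGTGA follow, read 5′ to 3′ on the gene's strand, with the match in capitals, together with Lamp1, which holds CACGTG at 4 places between 61 and 15 bases before its start site.
Ctsd (chr7:142387904-142387941, minus strand): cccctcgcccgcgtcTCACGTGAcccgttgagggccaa
Gla (chrX:134601211-134601248, minus strand): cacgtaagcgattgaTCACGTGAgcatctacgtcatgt
Gla (chrX:134601178-134601215, minus strand): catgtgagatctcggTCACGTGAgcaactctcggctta
Mcoln1 (chr8:3500458-3500495, plus strand): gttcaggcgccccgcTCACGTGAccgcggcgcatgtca
Ctsa (chr2:164833745-164833782, plus strand): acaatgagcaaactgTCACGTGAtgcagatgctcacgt
Ctsa (chr2:164833762-164833799, plus strand): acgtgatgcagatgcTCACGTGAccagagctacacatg
Atp6v0d1 (chr8:105566046-105566083, minus strand): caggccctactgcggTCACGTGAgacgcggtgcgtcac
Atp6v1a (chr16:44139369-44139406, minus strand): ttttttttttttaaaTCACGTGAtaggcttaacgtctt
Lamp1 (chr8:13159085-13159166, plus strand): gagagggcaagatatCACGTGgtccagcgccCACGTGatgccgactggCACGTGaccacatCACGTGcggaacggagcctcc
The genes that share these letters did not share a direction. Of the 6 with TCACGTGA, Ctsd and Gla rose in db/db against WT, Atp6v1a fell, and Ctsa, Mcoln1 and Atp6v0d1 did not pass the test. Of the 6 with CACGTG alone, Ctsl and Glb1 rose, Atg7 fell, and Lamp1, Gaa and Atg5 did not pass. Among the 20 members whose windows held no match, 7 rose and 6 fell. Of all genes tested, 21.8% were higher and 19.9% lower in this comparison. Against db/+, 2 rose and 2 fell of the 6 with TCACGTGA, and 2 rose and 1 fell of the 6 with CACGTG alone. Of the 20 with no match, 4 rose and 7 fell, beside 20.6% higher and 19.7% lower among all genes. A match is a description of the sequence and does not show that a factor binds there.

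Of the 5 lysosomal membrane genes, 1 rose and 1 fell in db/db against WT (20% each, beside 21.8% and 19.9% of all genes). Against db/+, 0 rose and 3 fell (0% and 60%, beside 20.6% and 19.7%). The clearest difference was a lower level of Lamp2. This gene encodes a heavily glycosylated membrane protein needed for the fusion of autophagic vesicles with lysosomes and for chaperone-mediated autophagy. Lamp2 (chromosome X, 38399647 to 38456460) was at 185, 184 and 178 CPM (db/db), 286, 272 and 256 CPM (db/+) and 259, 265 and 251 CPM (WT). The 3 db/db libraries were within a few CPM of each other and below all 6 others. It fell, its log2 fold change being -0.50 ± 0.071 (adjusted p = 8.14e-05) against WT and -0.57 ± 0.071 (adjusted p = 2.66e-05) against db/+, and both calls held with each library left out. Its close relative Lamp1 was at 409, 421 and 421 CPM (db/db), 531, 516 and 479 CPM (db/+) and 467, 485 and 421 CPM (WT), with all db/db libraries lowest by a narrow margin. It fell against db/+, -0.29 ± 0.081 (adjusted p = 0.0118), while the difference from WT was -0.13 ± 0.081 (adjusted p = 0.197). For Lamp1 against db/+, the call ended at -0.11 with the title letter covariate (adjusted p = 0.653) and -0.31 with the Y-linked covariate (adjusted p = 0.0878).

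Of the other 3 membrane genes, 1 passed against WT and 1 against db/+. Scarb2 encodes LIMP-2, which carries glucocerebrosidase to the lysosome, and was at 285, 305 and 309.8 CPM (db/db), 285, 291 and 262 CPM (db/+) and 253, 274 and 247 CPM (WT). It passed against WT with 0.22 ± 0.077 (adjusted p = 0.0357) and not against db/+, 0.10 ± 0.077 (adjusted p = 0.305). The call against WT ended without db/db 2, db/db 3, db/+ 2, WT 1 or WT 3 (adjusted p from 0.0231 to 0.125) and its sign turned, at -0.00072 (adjusted p = 0.997), with library totals as the scale. For Scarb2 against WT, the call ended at 0.28 with the title letter covariate (adjusted p = 0.081), 0.23 with the macrophage covariate (adjusted p = 0.0801) and 0.14 with the Y-linked covariate (adjusted p = 0.373). That call also ended without the low-count filter and with only the compared groups fitted. Mcoln1, the calcium release channel TRPML1, averaged 28.9 ± 0.548 CPM in db/db, 35.3 ± 3.74 CPM in db/+ and 33.6 ± 3.19 CPM in WT (SD, n = 3 each). It fell against db/+, -0.29 ± 0.10 (adjusted p = 0.0395), a call that ended without db/db 1, db/db 2, db/db 3, db/+ 2 or db/+ 3 (0.0252 to 0.169), and the difference from WT was -0.22 ± 0.10 (adjusted p = 0.109), with a range of 0.0493 to 0.278 when single libraries were dropped and a call without WT 3. For Mcoln1 against db/+, the call ended at -0.057 with the title letter covariate (adjusted p = 0.869), -0.29 with the acinar covariate (adjusted p = 0.0614), -0.37 with the macrophage covariate (adjusted p = 0.0738) and -0.31 with the Y-linked covariate (adjusted p = 0.226). That call also ended with DESeq2 and with limma-voom. Npc1, which exports cholesterol from the lysosome, averaged 49.6 ± 6.22, 42.03 ± 0.682 and 47.3 ± 4.50 CPM in db/db, db/+ and WT, and passed in neither comparison.

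Cathepsins were the largest group among the members that rose. Of 6 cathepsin and peptidase genes, 4 rose and 1 fell in db/db, both against WT and against db/+ (66.7% and 16.7%). Of all genes, 21.8% rose and 19.9% fell against WT, and 20.6% rose and 19.7% fell against db/+. Ctsl encodes cathepsin L, a cysteine protease, and had the largest rise of the 4 (chromosome 13, 64361890 to 64370772). It was at 292, 233 and 260.1 CPM (db/db), 182, 169 and 166 CPM (db/+) and 145, 145 and 118 CPM (WT). The groups did not overlap, with db/db highest and db/+ between db/db and WT. Its log2 fold change was 0.95 ± 0.10 (adjusted p = 6.47e-06) against WT, or 1.93-fold, and 0.60 ± 0.10 (adjusted p = 3.19e-04) against db/+. Ctsb, the cysteine protease cathepsin B, was at 291, 264 and 271 CPM (db/db), 219, 196 and 183 CPM (db/+) and 178, 194 and 166 CPM (WT). It rose by 0.62 ± 0.086 (adjusted p = 7.90e-05) against WT and by 0.47 ± 0.086 (adjusted p = 7.89e-04) against db/+. Every db/db library was above every library of the other groups. For Ctsb against db/+, the call ended at 0.24 on library totals (adjusted p = 0.126).

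Ctsd, the aspartic protease cathepsin D, was at 187, 187 and 204 CPM (db/db), 152, 153 and 149.9 CPM (db/+) and 131, 142 and 115 CPM (WT). The 3 db/+ libraries were nearly equal and lay between the other groups. The rise was 0.58 ± 0.081 (adjusted p = 8.23e-05) against WT and 0.35 ± 0.081 (adjusted p = 0.0038) against db/+. For Ctsd against db/+, the call ended at 0.30 with the Y-linked covariate (adjusted p = 0.0985) and 0.12 on library totals (adjusted p = 0.444). Ctsz, the carboxypeptidase cathepsin Z, was at 61.7, 52.5 and 47.95 CPM (db/db), 44.9, 39.6 and 42.5 CPM (db/+) and 38.96, 34.4 and 32.7 CPM (WT), highest in db/db 1. It rose by 0.61 ± 0.11 (adjusted p = 4.74e-04) against WT and by 0.35 ± 0.10 (adjusted p = 0.0161) against db/+, the second of which ended without db/db 1 or db/+ 2 (adjusted p from 0.00868 to 0.0742). For Ctsz against WT, the call ended at 0.35 with the acinar covariate (adjusted p = 0.15). For Ctsz against db/+, the call ended at 0.52 with the title letter covariate (adjusted p = 0.1), 0.13 with the macrophage covariate (adjusted p = 0.467) and 0.11 on library totals (adjusted p = 0.48). The opposite was seen for Tpp1, an aminopeptidase that removes tripeptides and is deficient in a childhood form of neuronal ceroid lipofuscinosis. Tpp1 (chromosome 7, 105744811 to 105752282) was at 29.4, 24.3 and 24.8 CPM (db/db), 40.3, 42.6 and 39.3 CPM (db/+) and 40.6, 45.6 and 47.6 CPM (WT). No db/db library reached any other library. It fell, at -0.77 ± 0.10 (adjusted p = 3.93e-05) against WT and -0.64 ± 0.10 (adjusted p = 2.00e-04) against db/+. For Tpp1 against db/+, the call ended at -0.43 with the Y-linked covariate (adjusted p = 0.0545). Ctsa, cathepsin A, which protects Neu1 and Glb1 in a complex, averaged 104 ± 0.913 CPM in db/db, against 98.01 ± 10.5 CPM in WT, and did not pass, at 0.088 ± 0.081 (adjusted p = 0.405).

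Beside these, 4 of 18 macrophage markers rose in db/db against WT (22.2%, with 21.8% of all genes higher) and 7 against db/+ (38.9%, with 20.6%). Of 20 acinar markers, 12 rose against WT (60%) and 1 against db/+ (5%). The 6 cathepsin and peptidase genes summed to 964, 865 and 912 CPM (db/db), 744, 708 and 681 CPM (db/+), and 634, 667 and 566 CPM (WT). With the mean level of the macrophage markers as a covariate, the fold changes against WT were 0.79 for Ctsl (adjusted p = 2.75e-05), 0.52 for Ctsb (9.22e-04), 0.56 for Ctsd (5.97e-04) and 0.44 for Ctsz (0.00782). In that fit Tpp1 fell, -0.85 (adjusted p = 1.40e-04). Against db/+, the same covariate gave 0.39 for Ctsl (adjusted p = 0.0152), 0.34 for Ctsb (0.0288), 0.32 for Ctsd (0.0427) and 0.13 for Ctsz (0.467). With the acinar mean as covariate, the fold changes against WT were 0.78 for Ctsl (adjusted p = 0.00422), 0.65 for Ctsb (0.00749), 0.61 for Ctsd (0.00757) and 0.35 for Ctsz (0.15). Without db/db 1, which held the most macrophage and acinar counts, Ctsl rose by 0.86 (adjusted p = 7.01e-06), Ctsb by 0.58 (1.55e-04), Ctsd by 0.60 (9.61e-05) and Ctsz by 0.50 (0.00153).

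**Figure D2:**
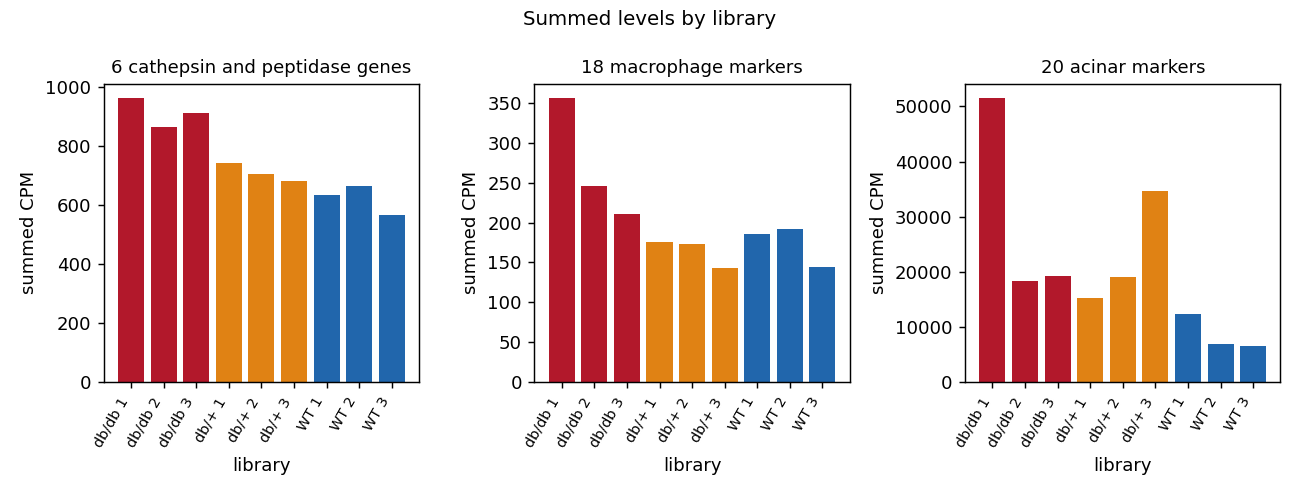
Summed CPM (vertical axes, from 0) of the 6 cathepsin and peptidase genes, of 18 macrophage markers and of 20 acinar markers in each library, with db/db in red, db/+ in orange and WT in blue. All 3 db/db libraries exceed the others for cathepsins and for macrophage markers, and db/db 1 stands highest in each panel.

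Among the 7 genes of glycan and lipid breakdown, 2 glycosidases rose (28.6%, beside 21.8% of all genes against WT and 20.6% against db/+). Of the 7, 1 fell against WT and 3 against db/+ (14.3% and 42.9%, beside 19.9% and 19.7% of all genes). Gla encodes alpha-galactosidase A, the enzyme deficient in Fabry disease, and was at 28.1, 26.8 and 27.05 CPM (db/db), 17.7, 18.6 and 15.01 CPM (db/+) and 15.7, 17.7 and 14.9 CPM (WT). The db/db libraries differed by under 2 CPM and lay above all others. It rose by 0.76 ± 0.11 (adjusted p = 1.49e-04) against WT and 0.68 ± 0.11 (adjusted p = 3.63e-04) against db/+. Glb1, the lysosomal beta-galactosidase, was at 23.7, 27.4 and 31.1 CPM (db/db), 17.1, 15.5 and 17.5 CPM (db/+) and 18.3, 17.9 and 14.2 CPM (WT). It rose by 0.71 ± 0.13 (adjusted p = 7.54e-04) against WT and 0.72 ± 0.13 (adjusted p = 6.90e-04) against db/+, with no overlap between db/db and the others. For Glb1 against WT, the call ended at 0.47 with the Y-linked covariate (adjusted p = 0.0754). For Glb1 against db/+, the call ended at 0.45 with the Y-linked covariate (adjusted p = 0.108).

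Psap, the most abundant member per length, went the other way. It encodes prosaposin, which is cleaved into the 4 saposins that help enzymes act on sphingolipids. Psap was at 783, 833 and 776 CPM (db/db), 1064, 1149 and 1111 CPM (db/+) and 970.4, 1101 and 901 CPM (WT), and the db/db libraries were the lowest 3. It fell, at -0.31 ± 0.091 (adjusted p = 0.0136) against WT and -0.47 ± 0.091 (adjusted p = 0.00102) against db/+. The call against WT ended without WT 2 (adjusted p from 0.00909 to 0.0626). For Psap against WT, the call ended at -0.18 with the title letter covariate (adjusted p = 0.313), -0.29 with the acinar covariate (adjusted p = 0.197) and -0.32 with the Y-linked covariate (adjusted p = 0.096). For Psap against db/+, the call ended at -0.27 with the title letter covariate (adjusted p = 0.288). Hexa, a subunit of beta-hexosaminidase, averaged 165 ± 8.75 CPM in db/db, 196 ± 6.41 CPM in db/+ and 154 ± 9.85 CPM in WT. It was lower in db/db than in db/+, -0.24 ± 0.074 (adjusted p = 0.0171), and did not pass against WT, 0.10 ± 0.074 (adjusted p = 0.317). The call against db/+ ended without db/db 1 or db/+ 2 (adjusted p from 0.0134 to 0.0662). For Hexa against db/+, the call ended at -0.083 with the title letter covariate (adjusted p = 0.718) and -0.23 with the macrophage covariate (adjusted p = 0.113). Npc2, a soluble cholesterol carrier that works with Npc1, showed a like order, with 129.6 ± 5.63, 149 ± 10.7 and 122 ± 6.02 CPM in db/db, db/+ and WT. Its fall against db/+ was -0.20 ± 0.076 (adjusted p = 0.0491) and ended without db/db 1, db/db 2, db/db 3, db/+ 1, db/+ 3 or WT 1 (0.0383 to 0.166). For Npc2 against db/+, the call ended at -0.094 with the title letter covariate (adjusted p = 0.704), -0.19 with the acinar covariate (adjusted p = 0.087), -0.21 with the macrophage covariate (adjusted p = 0.169) and -0.21 with the Y-linked covariate (adjusted p = 0.235). That call also ended with DESeq2 size factors, with either other setting of the low-count filter, with DESeq2, with limma-voom and with only the compared groups fitted. Gaa, which degrades glycogen, and the sialidase gene Neu1 passed in neither comparison with db/db, with log2 fold changes of 0.12 ± 0.094 and 0.02 ± 0.10 against WT.

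**Figure D3:**
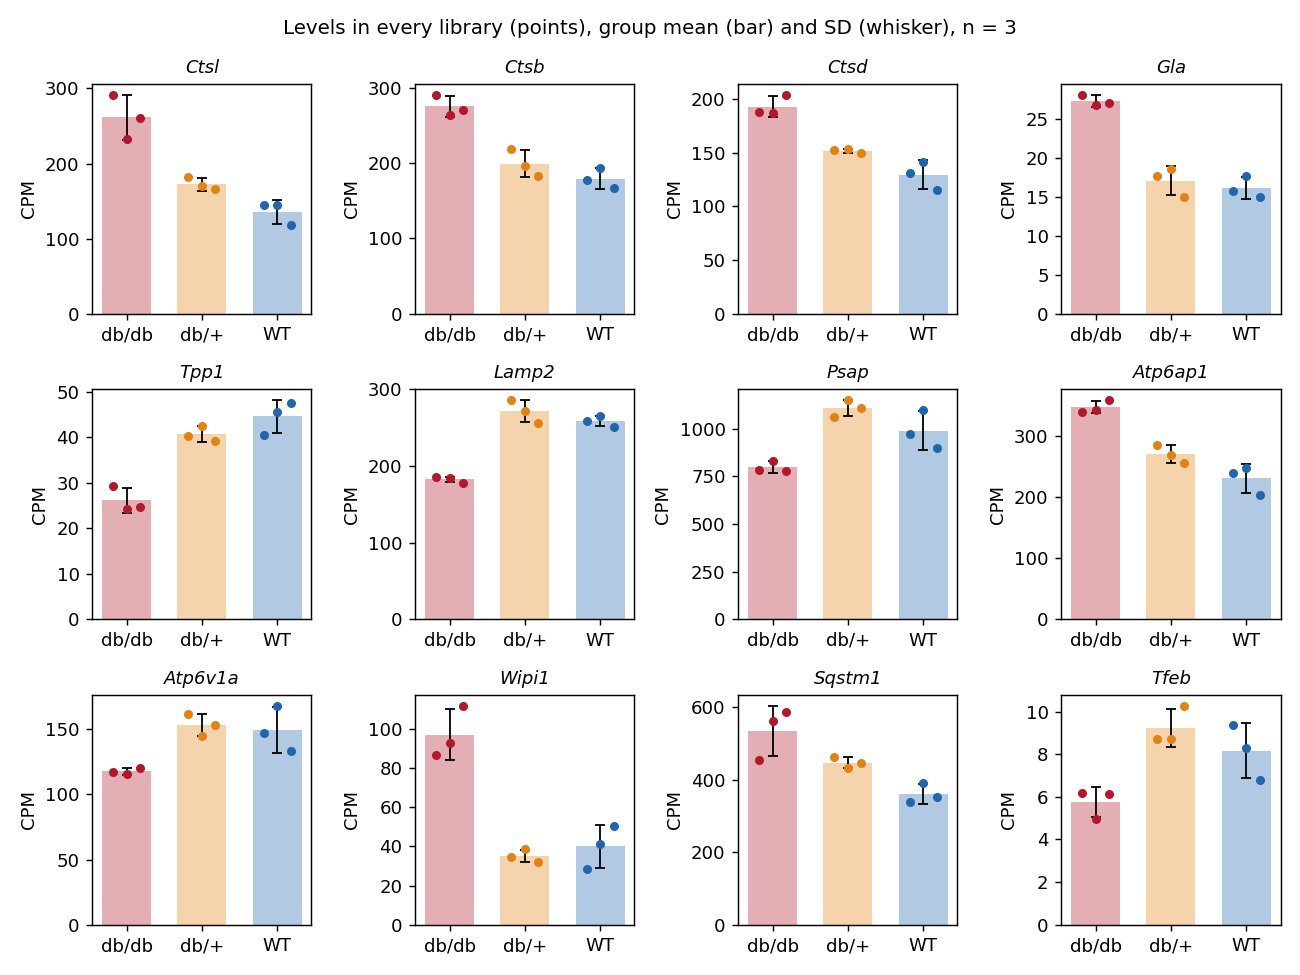
CPM (vertical axes, from 0) of 12 members in each library (points), with the mean (bar) and SD (whisker) of the 3 libraries of db/db, db/+ and WT. Ctsl reaches 262 ± 29.6 CPM in db/db against 136 ± 15.7 CPM in WT, and Lamp2 lies at 183 ± 3.56 CPM in db/db against 258 ± 6.72 CPM in WT.

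Of the 6 V-ATPase genes, 1 rose and 2 fell in db/db against WT (16.7% and 33.3%, beside 21.8% and 19.9% of all genes). Against db/+, 1 rose and 1 fell (16.7% each, beside 20.6% and 19.7%). Atp6ap1 encodes an accessory protein used in the assembly of the pump, and Atp6ap1 (chromosome X, 74297097 to 74304721) was at 339.8, 343 and 359 CPM (db/db), 286, 269 and 256 CPM (db/+) and 239, 248 and 204 CPM (WT). The db/db libraries were highest and closely grouped. It rose by 0.59 ± 0.086 (adjusted p = 1.04e-04) against WT and 0.36 ± 0.085 (adjusted p = 0.00422) against db/+. For Atp6ap1 against db/+, the call ended at 0.31 with the macrophage covariate (adjusted p = 0.0575), 0.33 with the Y-linked covariate (adjusted p = 0.0841) and 0.14 on library totals (adjusted p = 0.417). Atp6v1a, the catalytic subunit of the V1 sector, was at 117, 116 and 120.4 CPM (db/db), 161, 145 and 153 CPM (db/+) and 147, 168 and 133 CPM (WT). It fell, at -0.35 ± 0.086 (adjusted p = 0.00556) against WT and -0.38 ± 0.086 (adjusted p = 0.00319) against db/+, with the db/db libraries below all others. For Atp6v1a against WT, the call ended at -0.18 with the title letter covariate (adjusted p = 0.238), -0.31 with the acinar covariate (adjusted p = 0.162) and -0.34 with the Y-linked covariate (adjusted p = 0.0716). For Atp6v1a against db/+, the call ended at -0.14 with the title letter covariate (adjusted p = 0.556) and -0.37 with the Y-linked covariate (adjusted p = 0.0671). Atp6v0a1, an isoform of the largest subunit of the membrane sector, was at 101, 125 and 122 CPM (db/db), 117, 136 and 133 CPM (db/+) and 147, 151 and 166 CPM (WT). It was lower in db/db than in WT, -0.42 ± 0.093 (adjusted p = 0.00281), with the db/+ mean between them, and did not pass against db/+, -0.15 ± 0.093 (adjusted p = 0.217). For Atp6v0a1 against WT, the call ended at -0.26 with the acinar covariate (adjusted p = 0.252).

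The remaining V-ATPase members passed in no comparison. Atp6v0d1, a subunit of the membrane sector, averaged 123 ± 6.96, 125 ± 6.13 and 120.3 ± 11.1 CPM in db/db, db/+ and WT. For Atp6v1h, a regulatory subunit of the V1 sector, the levels were 108 ± 12.4, 113 ± 12.1 and 115 ± 6.38 CPM. Atp6ap2, the second accessory protein, also known as the prorenin receptor, stood at 309.7 ± 21.7, 335 ± 15.98 and 295 ± 17.6 CPM. The accessory gene Atp6ap1 and the catalytic gene Atp6v1a, parts of the same complex, thus differed from WT in opposite directions.

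Of the 7 genes of autophagy initiation and conjugation, Wipi1 had the largest change of all members. It encodes a protein that binds phosphatidylinositol 3-phosphate on the growing autophagic membrane. Wipi1 (chromosome 11, 109573521 to 109611389) was at 86.9, 92.9 and 112 CPM (db/db), 34.8, 38.5 and 32.3 CPM (db/+) and 28.6, 41.1 and 50.7 CPM (WT). The WT libraries were spread more widely than the db/+ ones, and all db/db libraries lay well above both groups. It rose by 1.29 ± 0.19 (adjusted p = 4.87e-04) against WT, 2.44-fold, and by 1.47 ± 0.19 (adjusted p = 2.26e-04) against db/+, 2.77-fold. WT 3, the WT library whose title opens with the same letter as those of db/db, was the highest of WT, and with that letter as a covariate the fold change against WT was 0.94 (adjusted p = 0.00744).

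The conjugation genes stood lower or did not pass. Atg7, the enzyme that activates ATG12 and the ATG8 proteins, was at 17.02, 12.02 and 15.5 CPM (db/db), 19.2, 17.9 and 19.2 CPM (db/+) and 21.1, 17.7 and 19.9 CPM (WT). The db/db libraries were the lowest 3. It fell, at -0.40 ± 0.13 (adjusted p = 0.0278) against WT, a call that ended without db/db 2, WT 1 or WT 3 (adjusted p from 0.0123 to 0.115), and was at -0.34 ± 0.13 (adjusted p = 0.0589) against db/+, with a range of 0.0284 to 0.241 when single libraries were dropped and a call without db/db 1. For Atg7 against WT, the call ended at -0.42 with the title letter covariate (adjusted p = 0.122) and -0.23 with the Y-linked covariate (adjusted p = 0.435). Atg16l1, which places the conjugation complex on the membrane, averaged 61.7 ± 3.70 CPM in db/db, 71.9 ± 2.03 CPM in db/+ and 71.6 ± 6.20 CPM in WT. Its falls of -0.22 ± 0.083 (adjusted p = 0.049) against WT and -0.22 ± 0.083 (adjusted p = 0.0452) against db/+ were close to the threshold. They ended without db/db 1, db/db 3, db/+ 1, db/+ 2, db/+ 3, WT 1 or WT 2 against WT (0.0149 to 0.177) and without db/db 1, db/db 2, db/db 3, db/+ 1, db/+ 2 or db/+ 3 against db/+ (0.0264 to 0.186). For Atg16l1 against WT, the call ended at -0.066 with the title letter covariate (adjusted p = 0.679), -0.33 with the acinar covariate (adjusted p = 0.11) and -0.17 with the Y-linked covariate (adjusted p = 0.355). That call also ended with a low-count filter on CPM, with DESeq2, with limma-voom and with only the compared groups fitted. For Atg16l1 against db/+, the call ended at -0.0027 with the title letter covariate (adjusted p = 0.994) and -0.17 with the Y-linked covariate (adjusted p = 0.397). That call also ended with DESeq2 and with limma-voom. Atg12, the ubiquitin-like partner of Atg5, was at 22.5, 27.6 and 24.4 CPM (db/db), 30.2, 34.3 and 33.9 CPM (db/+) and 29.4, 27.99 and 30.8 CPM (WT). It fell, at -0.40 ± 0.10 (adjusted p = 0.00714) against db/+ and stood at -0.24 ± 0.10 (adjusted p = 0.0747) against WT, with a range of 0.0366 to 0.228 when single libraries were dropped and a call without db/db 2. For Atg12 against db/+, the call ended at -0.50 with the title letter covariate (adjusted p = 0.1) and -0.28 with the macrophage covariate (adjusted p = 0.154). Atg5 itself averaged 38.7 ± 2.04, 37.9 ± 3.02 and 33.8 ± 1.61 CPM in db/db, db/+ and WT and did not pass.

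Of the initiation genes, Ulk1, the kinase at the start of autophagy, was at 39.9, 50.2 and 43.1 CPM (db/db), 34.8, 34.9 and 34.99 CPM (db/+) and 34.9, 35.5 and 46.3 CPM (WT). WT 3 lay among the db/db libraries, and the db/+ libraries were nearly equal. It was higher in db/db than in db/+, 0.35 ± 0.12 (adjusted p = 0.0287), and did not pass against WT, 0.19 ± 0.12 (adjusted p = 0.198), with a range of 0.0272 to 0.593 when single libraries were dropped and a call without WT 3. The call ended without db/db 2, db/db 3, db/+ 1, db/+ 2 or db/+ 3 (0.0115 to 0.132). For Ulk1 against db/+, the call ended at -0.048 with the title letter covariate (adjusted p = 0.884), 0.17 with the Y-linked covariate (adjusted p = 0.545) and 0.12 on library totals (adjusted p = 0.491). Becn1, a subunit of the lipid kinase complex that acts after Ulk1, averaged 114 ± 10.9, 122 ± 2.25 and 113 ± 2.95 CPM in db/db, db/+ and WT and did not pass.

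Among the ATG8 family and its cargo receptor, Sqstm1 and Gabarapl1 rose in db/db against WT. With Map1lc3b, 3 of these 6 genes rose and 0 fell (50% and 0%, beside 21.8% and 19.9% of all genes). Against db/+, 0 rose and 1 fell (0% and 16.7%, beside 20.6% and 19.7%). Sqstm1 encodes p62, which links ubiquitin-tagged cargo to ATG8 proteins and is itself degraded by autophagy. Sqstm1 (chromosome 11, 50200152 to 50210820) was at 455, 563 and 587 CPM (db/db), 463, 433 and 447 CPM (db/+) and 339.7, 392 and 353 CPM (WT). The db/db libraries were above all WT libraries, and db/db 1 lay within the db/+ range. It rose by 0.57 ± 0.10 (adjusted p = 4.90e-04) against WT and was at 0.26 ± 0.10 (adjusted p = 0.0512) against db/+. For Sqstm1 against WT, the call ended at 0.32 with the Y-linked covariate (adjusted p = 0.0573). The adjusted p against db/+ was 0.00342 to 0.189 over the fits that dropped single libraries, with a call without db/db 1. Gabarapl1, a member of the GABARAP branch, was at 198, 227 and 221 CPM (db/db), 216, 184 and 175 CPM (db/+) and 145, 153 and 139.6 CPM (WT). It rose by 0.56 ± 0.089 (adjusted p = 2.33e-04) against WT, and db/db and db/+ overlapped, with 0.17 ± 0.089 (adjusted p = 0.145) between them and a range of 0.0328 to 0.438 when single libraries were dropped and a call without db/+ 1.

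Of the other 4 ATG8 genes, 1 passed against WT and 1 against db/+. Map1lc3b, the LC3 gene most used as an autophagy marker, averaged 111 ± 11.6 CPM in db/db, 115 ± 1.65 CPM in db/+ and 96.4 ± 3.63 CPM in WT. Its rise against WT of 0.21 ± 0.081 (adjusted p = 0.0497) barely passed. It ended without db/db 2, db/db 3, db/+ 1, db/+ 2, db/+ 3, WT 1, WT 2 or WT 3 (0.00587 to 0.193) and the value was -0.0044 (adjusted p = 0.981) with library totals as the scale. For Map1lc3b against WT, the call ended at 0.25 with the title letter covariate (adjusted p = 0.145), 0.37 with the acinar covariate (adjusted p = 0.0575) and 0.013 with the Y-linked covariate (adjusted p = 0.94). That call also ended with DESeq2 size factors, without the low-count filter, with DESeq2 and with limma-voom. Fitting only the compared groups, or removing Gm42418 and Lars2, ended it as well. Map1lc3a, a related LC3 gene, was lower in db/db than in db/+, -0.32 ± 0.12 (adjusted p = 0.0396), at 21.6 ± 1.07 against 27.1 ± 3.12 CPM, with WT at 21.1 ± 2.11 CPM. That call ended without db/db 1, db/db 2, db/db 3, db/+ 1 or db/+ 3 (0.0314 to 0.155). For Map1lc3a against db/+, the call ended at -0.38 with the title letter covariate (adjusted p = 0.286), -0.27 with the acinar covariate (adjusted p = 0.0954), -0.27 with the macrophage covariate (adjusted p = 0.242) and -0.34 with the Y-linked covariate (adjusted p = 0.228). That call also ended with DESeq2 and with limma-voom. Gabarap and Gabarapl2 passed in neither comparison, with log2 fold changes of 0.19 ± 0.088 and 0.18 ± 0.13 against WT.

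**Figure D4:**
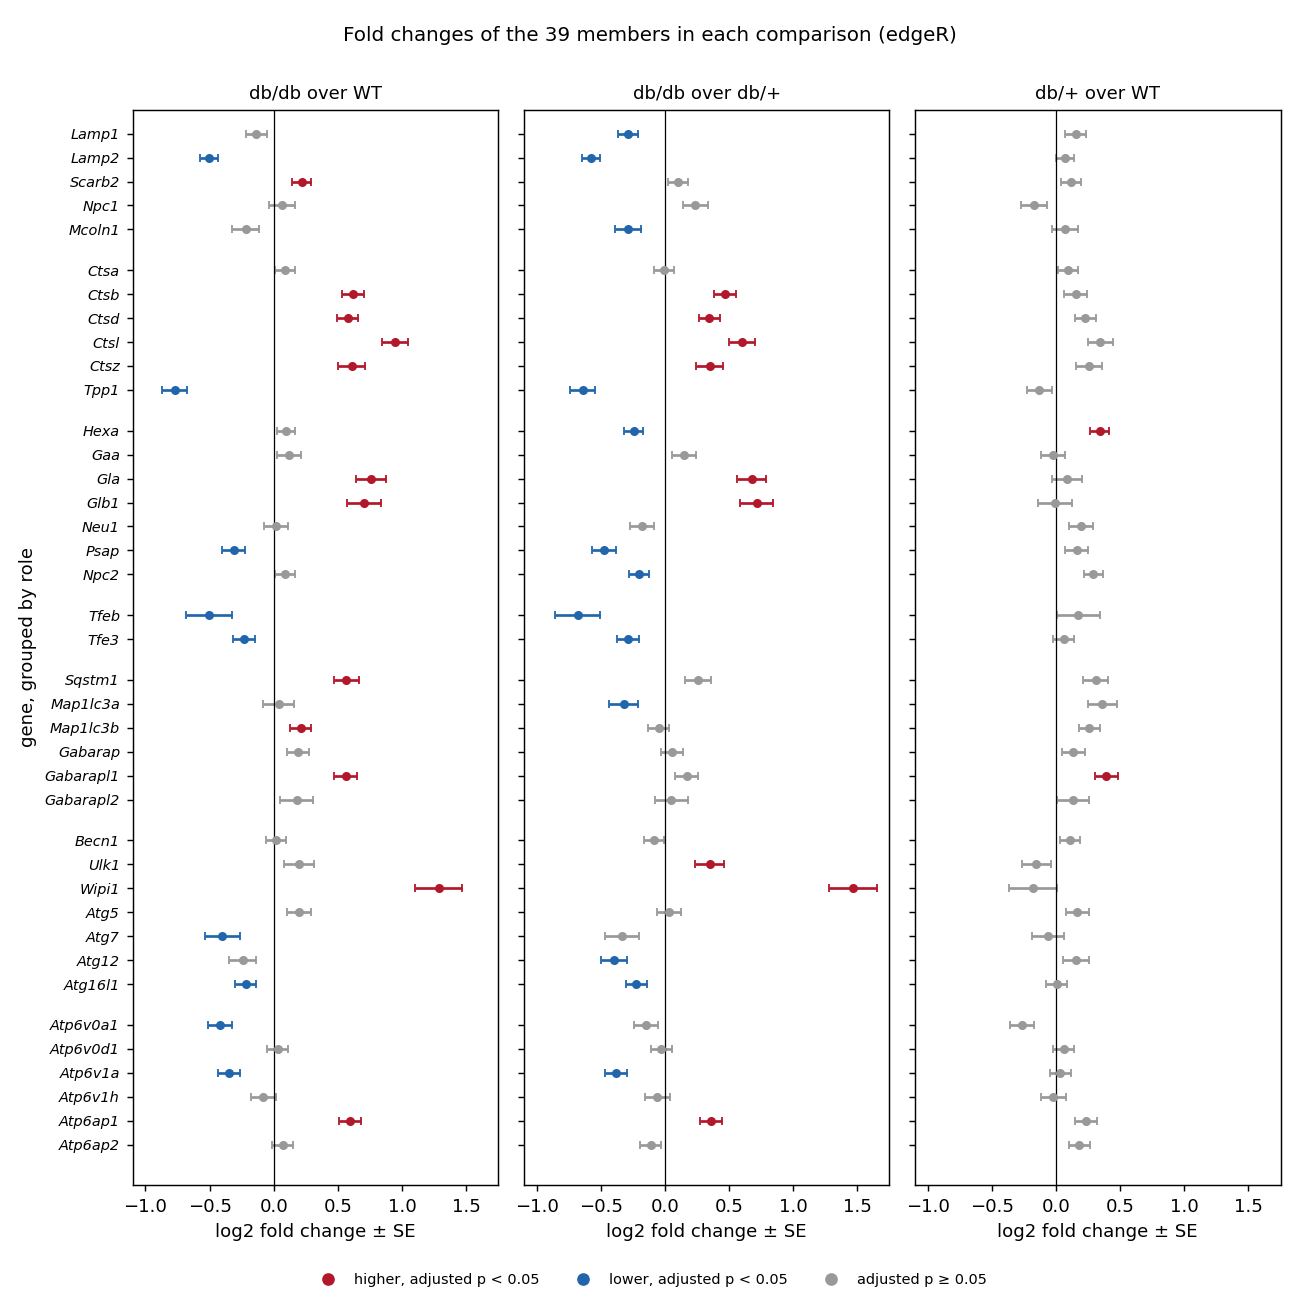
Log2 fold change (horizontal axes, points) ± SE (whiskers) of each member, in rows grouped by role, for db/db over WT, db/db over db/+ and db/+ over WT. Red points were higher and blue points lower at an adjusted p under 0.05, and grey points did not pass; Wipi1 lies farthest right at 1.29 over WT and Tpp1 farthest left at -0.77.

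The comparison of db/+ with WT showed few differences. Of the 39 members, 2 were higher in db/+ and 0 lower, while 0.606% of all genes tested were higher and 0.82% lower, 1.43% in all. At an unadjusted p under 0.05, 12 members differed (30.8%), beside 15.6% of all genes tested, and no member was lower by DESeq2 or limma-voom either. Hexa stood at 197, 201 and 189 CPM (db/+) against 159, 161 and 143 CPM (WT), a rise of 0.34 ± 0.073 (adjusted p = 0.043), and Gabarapl1 at 216, 184 and 175 CPM (db/+) against 145, 153 and 139.6 CPM (WT), a rise of 0.39 ± 0.089 (adjusted p = 0.048). Each of these calls ended when any library other than db/db 1 was left out, with adjusted p from 0.025 to 0.181 for Hexa and 0.0248 to 0.213 for Gabarapl1. Both calls also ended with the title letter covariate and on library totals. That of Gabarapl1 ended as well with DESeq2 size factors and with Gm42418 and Lars2 removed. For 13 members (33.3%) all db/+ libraries lay above all WT libraries, against 12.1% of all genes, and for 1, Atp6v0a1, all lay below, against 10.4% of all genes. The members' median log2 fold change was 0.13, against 0.016 for all genes. The acinar markers also stood higher in db/+, with a median log2 fold change of 1.42. Of the 20, 17 lay above WT without overlap, though none passed the test. With the acinar mean as a covariate, 1 member was higher in db/+ than in WT and 0 lower, and the call of Hexa ended. The cause of the members' values was not tested. This comparison shares its WT libraries with that of db/db against WT and its db/+ libraries with that of db/db against db/+, so a low WT value raises both fold changes of a gene over WT.

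Other genes of these pathways, from lists put together for this comparison, also moved both ways. These lists were chosen with earlier results of these data known, so their shares are not independent of the data. Of 40 further lysosomal genes, 16 rose and 6 fell in db/db against WT (40% and 15%, beside 21.8% and 19.9% of all genes). Against db/+, 17 rose and 10 fell (42.5% and 25%, beside 20.6% and 19.7%). Gnptg, a subunit of the enzyme that begins the mannose 6-phosphate tag on lysosomal enzymes, rose by 0.81 ± 0.076 (adjusted p = 2.32e-06), at 199 ± 12.4 CPM in db/db against 114 ± 5.89 CPM in WT. Laptm4a, a lysosomal membrane gene, rose by 0.75 ± 0.083 (adjusted p = 9.02e-06). Sort1, the sorting receptor sortilin, was at 168, 197 and 202 CPM (db/db), 334, 361 and 373 CPM (db/+) and 378, 382 and 368 CPM (WT), and fell, at -0.99 ± 0.085 (adjusted p = 1.11e-06) against WT and -0.91 ± 0.085 (adjusted p = 2.35e-06) against db/+. Asah1, acid ceramidase, fell, at -0.58 ± 0.074 (adjusted p = 3.80e-05). The db/db libraries lay apart from both other groups for each of these 4 genes.

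Among 19 further V-ATPase genes, 13 were tested. Against WT, 6 rose and 4 fell (46.2% and 30.8%, beside 21.8% and 19.9% of all genes). Against db/+, 4 rose and 4 fell (30.8% each, beside 20.6% and 19.7%). Tcirg1, an isoform of the largest membrane subunit best known from osteoclasts, rose by 0.79 ± 0.14 (adjusted p = 6.00e-04) to 20.7 ± 2.47 CPM in db/db, against 11.9 ± 1.64 CPM in WT. Atp6v0e2 rose by 0.44 ± 0.084 (adjusted p = 9.54e-04), and Atp6v1d fell, at -0.39 ± 0.084 (adjusted p = 0.00217). Atp6v0c, the proton-carrying ring subunit, fell, at -1.005 ± 0.20 (adjusted p = 0.00108), at 4.35 ± 0.865 CPM in db/db against 8.83 ± 1.12 CPM in WT. The table also lists a pseudogene copy of Atp6v0c, so its counts are uncertain.

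Of 31 tested autophagy genes outside the members, 7 rose and 10 fell against WT (22.6% and 32.3%, beside 21.8% and 19.9% of all genes). Against db/+, 8 rose and 10 fell (25.8% and 32.3%, beside 20.6% and 19.7%). Vmp1, a membrane protein of the endoplasmic reticulum used in autophagosome formation, was at 91.8, 70.6 and 85.2 CPM (db/db), 42.4, 39.3 and 45.1 CPM (db/+) and 37.5, 47.4 and 45.2 CPM (WT). It rose by 0.93 ± 0.11 (adjusted p = 2.03e-05) against WT. The ATG8-processing protease gene Atg4c rose by 0.85 ± 0.14 (adjusted p = 3.60e-04). Epg5, a tether in the fusion of autophagosomes with lysosomes, fell, at -0.70 ± 0.082 (adjusted p = 1.62e-05), and Uvrag, a partner of Becn1, was at -0.53 ± 0.077 (adjusted p = 1.05e-04).

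A further list held nutrient-sensing genes that act on TFEB and TFE3, together with the related factor genes Mitf and Tfec. Of its genes, 11 of 26 tested fell and 3, Mitf included, rose against WT (42.3% and 11.5%, beside 19.9% and 21.8% of all genes). Against db/+, 12 fell and 1 rose (46.2% and 3.85%, beside 19.7% and 20.6%). Flcn, folliculin, which works with the Rag GTPases in the control of TFEB and TFE3, was at 42.9, 46.7 and 50.5 CPM (db/db), 113, 112 and 108 CPM (db/+) and 104, 97.6 and 92.7 CPM (WT). All 3 db/db libraries lay far below all 6 others. It fell, at -1.07 ± 0.079 (adjusted p = 2.96e-07) against WT and -1.25 ± 0.079 (adjusted p = 6.42e-08) against db/+. Fnip2, a binding partner of folliculin, fell, at -0.94 ± 0.10 (adjusted p = 4.74e-06), at 79.3 ± 10.7 CPM in db/db against 153 ± 12.1 CPM in WT. Lamtor2, part of the complex that anchors mTORC1 to the lysosome, rose by 0.82 ± 0.21 (adjusted p = 0.00774), and Mitf, another factor of the TFEB family, by 0.38 ± 0.12 (adjusted p = 0.0256).

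**Figure D5:**
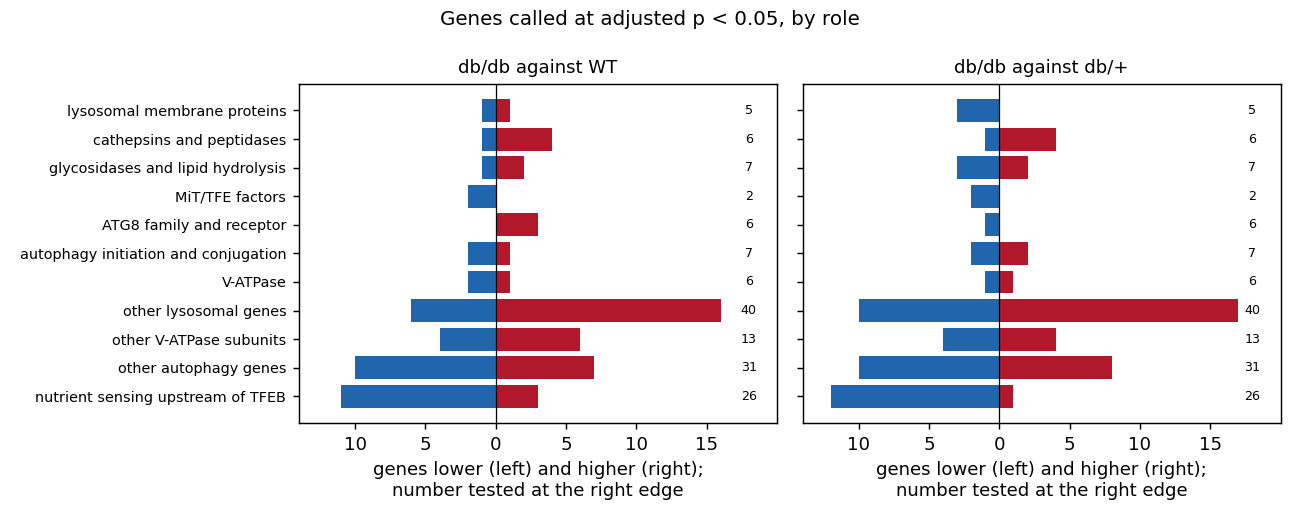
Number of genes lower (blue, to the left) and higher (red, to the right) at an adjusted p under 0.05 in each role of the members and in the 4 further lists, in db/db against WT and in db/db against db/+, with the number tested at the right edge. The nutrient-sensing list, which includes Mitf and Tfec, has 11 lower and 3 higher genes against WT, and the further lysosomal genes 6 lower and 16 higher.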

How the data were processed

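RNA from mouse islets was sequenced in 9 libraries, 3 for each of db/db, db/+ and WT. The authors deposited a table of raw counts per gene symbol. Per the submitters' processing notes, bcl2fastq 2.20.0.422 and TopHat2 2.0.14 were used with the mm10 build. For the counting program, its annotation and its use of strand: not given in the sources used here. Columns were matched to libraries by name, and 1 column that matched none was not used. Replicate numbers follow accession order and pair nothing.

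The counts were fitted with edgeR 4.0.16 in R 4.3.3 (TMM, filterByExpr on the 3 groups, robust quasi-likelihood test, 1 term per group over all 9 libraries, two-sided), with Benjamini-Hochberg adjustment over 16826 of 52459 genes and a threshold of 0.05. The common biological coefficient of variation was 0.129, with 6 residual degrees of freedom. Counting error alone limits a gene at 0 to 0.238 to 0.412 CPM, the level of 3 counts in a library. Within groups, r of log2(CPM + 1) across genes was 0.976 to 0.988 in db/db, 0.990 to 0.992 in db/+ and 0.988 to 0.990 in WT. The fit was tested on simulated data.

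The members, the other gene lists and the markers were chosen with earlier results of these data known. All members are described; of each other list, the 2 risen and 2 fallen genes with the smallest adjusted p against WT are named. Exon lengths came from GENCODE annotation and promoter windows from RefSeq (GRCm38.p6). Alternatives changed the scaling, the filter on low counts, the tool (DESeq2 1.42.0, or limma 3.58.1 with voom), the samples fitted and the covariates.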

Additional observations from a re-analysis of the deposited data

How the results depend on the processing

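Of the calls made among the members, 14 of 21 in db/db against WT, 14 of 22 in db/db against db/+ and 0 of 2 in db/+ against WT held with each library left out, and 9, 4 and 0 held under every alternative run. The 12 members higher in db/db than in WT numbered 10 to 12 with a library left out. The 9 lower ones became 3 with the first letter of the library title as a covariate, 4 with the acinar covariate, 3 with the Y-linked covariate, and 5 to 9 with a library left out. The 9 members higher in db/db than in db/+ became 4 with library totals and 5 with the Y-linked covariate, and 7 to 9 with a library left out. The 13 lower ones became 2 with the title letter, 7 with the macrophage covariate and 5 with the Y-linked covariate, and 8 to 13 with a library left out. The 2 members higher in db/+ than in WT became 1 with DESeq2 size factors, 0 with library totals, 5 with the DESeq2 test, 0 with the title letter, 1 with the acinar covariate, 4 with the Y-linked covariate, 1 with Gm42418 and Lars2 removed, and 0 to 2 with a library left out. Among alternatives chosen after seeing the data, leaving out db/db 1, WT 1 and WT 3 gave 4 lower in db/db than in WT and 0 higher in db/+ than in WT, with WT 2 as the only WT library, and leaving out db/db 1 and db/db 2 gave 4 lower than WT and 4 lower than db/+. The sign turned for Scarb2 (-0.00072) and Map1lc3b (-0.0044) in db/db against WT with library totals, and for Ulk1 (-0.048) in db/db against db/+ with the title letter. The cause was not tested.

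Over all genes, the 7018 calls in db/db against WT became 4425 with the title letter, 3424 with the acinar covariate and 4449 without the 3 libraries holding Xist and Y-linked counts. The 6773 calls in db/db against db/+ became 2033 with the title letter, 4402 with the Y-linked covariate and 4511 without db/db 1 and db/db 2. The 240 calls in db/+ against WT became 768 without a filter on low counts, 641 with DESeq2, 45 with the title letter, 103 with the acinar, 443 with the macrophage and 407 with the Y-linked covariate, 97 without the 3 libraries, and 23 to 430 with a library left out. The alternatives were run for the members and not for the genes of the other lists. No paired analysis was possible because the replicate numbers follow accession order and pair nothing.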

Other observations

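Several further lysosomal genes outside the members had larger fold changes than any cathepsin among them, and were singled out after their values were seen. Ctsk, cathepsin K, a protease best known from osteoclasts, was at 9.19, 6.57 and 3.99 CPM (db/db), 0.970, 1.18 and 1.47 CPM (db/+) and 1.03, 1.08 and 1.63 CPM (WT), and its log2 fold change in db/db was 2.39 ± 0.35 (adjusted p = 1.01e-04) over WT and 2.43 ± 0.34 (adjusted p = 8.77e-05) over db/+. Lgmn, the protease legumain, was at 52.1, 50.4 and 47.1 CPM (db/db), 28.1, 20.8 and 17.3 CPM (db/+) and 20.3, 22.1 and 17.7 CPM (WT) and had a log2 fold change of 1.31 ± 0.15 (adjusted p = 2.02e-05) against WT. The db/db values of Ctsk were unequal, and those of Lgmn lay within a few CPM of each other. Lipa, lysosomal acid lipase, had 1.10 ± 0.17 (adjusted p = 1.66e-04) and Gm2a, the GM2 activator, 1.15 ± 0.17 (adjusted p = 3.04e-04), and both were highest in db/db 1.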
